A study of Homo sapiens with 4 samples.

Results

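The genes described here are 10 classical transcriptional targets of the tumour suppressor p53, namely CDKN1A, BTG2, ZMAT3, MDM2, TP53INP1, TNFRSF10B, PHLDA3, SESN1, RRM2B and FDXR. They were taken from a given list of p53 targets and by a rule that uses no measured value, though with earlier results of these data known, and each symbol matched 1 of the 64252 gene identifiers in the deposited count table. RNA was sequenced from J.gamma1, a subline of Jurkat, a human T-ALL (T-cell acute lymphoblastic leukemia) line, that is deficient in phospholipase C gamma 1. There were 4 libraries: 2 of cells transfected with shNC, a control short hairpin RNA, and 2 of cells transfected with shELOVL5, directed at the fatty acid elongase gene ELOVL5. Column names of the table hold the mark D4, which the labels do not explain. All libraries are of 1 line, and 1 hairpin name against ELOVL5 is given, so loss of ELOVL5 and other effects of that hairpin cannot be told apart.

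The p53 protein is a DNA-binding factor that is stabilised after DNA damage and other stresses and switches on genes of cell cycle arrest, DNA repair, apoptosis and metabolism. It binds a consensus made of a pair of half-sites, and one of its targets, MDM2, encodes the ligase that marks p53 for degradation, which closes a feedback loop. Jurkat cells are known to be p53-deficient, so the list was followed here in a lineage without the factor that names it. The same genes also answer to other transcription factors.

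RefSeq promoter windows of 300 bases, from 250 before to 50 after a gene start (GRCh38.p14), were held for 6 of the 10 members, in 13 windows. They were searched for the p53 consensus, a pair of adjoining 10-base half-sites, with up to 3 mismatches in 20 bases. The consensus reads alike on both strands, so that 1 strand was searched. A match was found for MDM2, FDXR and SESN1. Over all genes with windows, a match was found in 5.2% of 35116 windows and for 6.39% of 27305 genes. The 4 stretches that matched are shown, since they are the part of these promoters that resembles the element the list is named for. Capitals mark the 20 matching bases, written 5′ to 3′ on the gene's strand.
MDM2, chr12:68808918-68808947, plus strand, 2 mismatches: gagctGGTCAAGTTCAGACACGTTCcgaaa
MDM2, chr12:68808956-68808985, plus strand, 3 mismatches: aaaggAGTTAAGTCCTGACTTGTCTccagc
FDXR, chr17:74872991-74873020, minus strand, 3 mismatches: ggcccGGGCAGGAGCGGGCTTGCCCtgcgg
SESN1, chr6:109009013-109009042, minus strand, 3 mismatches: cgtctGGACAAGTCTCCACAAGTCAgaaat
Both MDM2 stretches lie before an internal start of the gene, where the matches begin 94 and 56 bases upstream. In FDXR the match begins 21 bases and in SESN1 49 bases before a start. The windows of CDKN1A, BTG2 and ZMAT3 held no match, which says only that these letters are not in those windows. No binding was measured in this study.

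Library totals were 16254002 to 17338719 counts. Replicates of a group differed by more than counting noise, with a chi-square per degree of freedom of 5.19 and 5.58, against 22.8 to 24.8 between groups. The targeted gene ELOVL5 had 5816 and 5664 counts in shNC and 1255 and 1157 in shELOVL5 (log2 fold change -2.29, SE 0.0486, adjusted p = 1.8e-09). All 12 T cell markers were above 1 CPM (counts scaled to library size), with a summed level of 1730 to 1740 CPM in shNC and 1710 CPM in both shELOVL5 libraries. The near-equal sums hide opposed changes at an adjusted p under 0.05. CD3E and CD3G rose (log2 fold change 0.32 and 0.25), and 5 markers fell, among them TRAC and CD3D (-0.41 and -0.26). TRBC1 varied most between replicates, at 63.1 and 37.6 CPM in shNC and 25.8 and 75.8 CPM in shELOVL5. The share of T cell markers called was 58.3%, against 20.4% of all genes tested and 27.4% of those at 5 CPM or more. The list was chosen with earlier results of these data known, so the share is a description only. Of 17 markers of other cell types, 6 were at 0 counts in each library, among them LYZ, CSF1R, HBB, EPCAM and COL1A2, and 6 had enough counts to be tested. CD79A, a B cell marker, fell from 40.3 ± 4.45 to 25.7 ± 1.27 CPM (SD, n = 2, log2 fold change -0.65, adjusted p = 0.00267). PECAM1, listed here as an endothelial marker, rose from 97.4 ± 3.13 to 115 ± 0.0411 CPM (log2 fold change 0.24, adjusted p = 0.0141). Summed levels of B cell markers were 37.4 to 43.7 CPM in shNC and 24.8 to 26.8 CPM in shELOVL5, nearly all of it CD79A. Those of fibroblast and endothelial markers were 99 to 105 and 122 to 123 CPM, nearly all of it PECAM1. The fibroblast genes of that list were low, with COL1A1 at 3.86 to 7.54 CPM and COL1A2 at 0 counts. Epithelial markers summed to 4.86 to 7.4 CPM and myeloid markers to 0.705 to 1.68 CPM over all libraries. Their part in the values of the p53 targets was not tested. The labels do not say that replicates were separate cultures, so p-values measure the spread between these libraries, which may be technical.

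Among the 10 p53 targets, 4 rose in shELOVL5, 1 fell and 5 did not pass the test. PHLDA3, TP53INP1 and TNFRSF10B rose 1.47-fold, 1.45-fold and 1.42-fold, MDM2 rose 1.14-fold, and ZMAT3 fell 1.32-fold. CDKN1A, the best known target of the list, did not pass, nor did BTG2, SESN1, RRM2B and FDXR. All 10 were tested, in an edgeR quasi-likelihood fit over 17461 genes in which 20.4% passed an adjusted p of 0.05, 9.21% as higher and 11.2% as lower. Among the 12244 genes whose mean was 5 CPM or more, as in all 10 members, 27.4% passed, 12.2% as higher and 15.2% as lower. The median log2 fold change, shELOVL5 over shNC, was 0.225 over the members and 0.006 over all genes tested, and the median size without sign was 0.306 and 0.240. Each fit without 1 library left 1 library in a group, so its p-values rest on the spread within the other group. Fewer genes passed over all genes in each of these fits. In these fits the log2 fold change was 0.5 to 0.6 for PHLDA3, 0.45 to 0.61 for TP53INP1 and 0.44 to 0.56 for TNFRSF10B. It was 0.13 to 0.24 for MDM2 and -0.44 to -0.37 for ZMAT3.

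**Figure D1:**
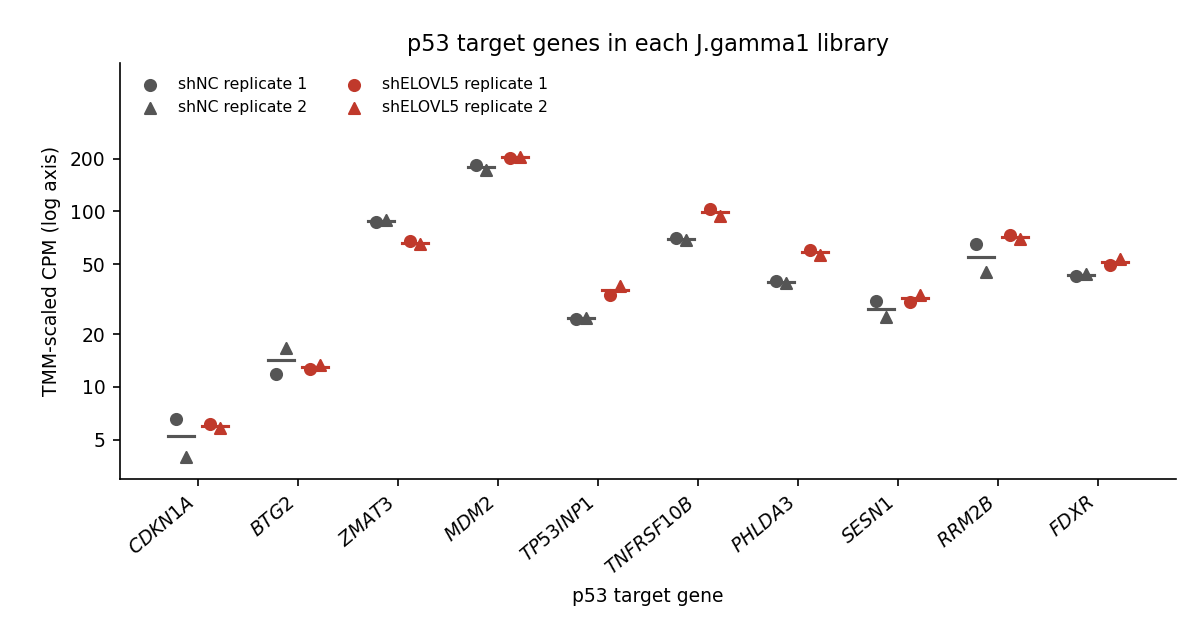
Level of each p53 target in each library, in TMM-scaled CPM on a log axis; grey points are shNC, red points shELOVL5, circles replicate 1, triangles replicate 2 and bars group means (n = 2). PHLDA3, TP53INP1 and TNFRSF10B are higher in both shELOVL5 libraries, ZMAT3 is lower, and the shNC points of CDKN1A, BTG2, SESN1 and RRM2B lie apart from each other.

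Levels are given in CPM scaled by library with the TMM method, in the order shNC replicate 1, shNC replicate 2, shELOVL5 replicate 1 and shELOVL5 replicate 2. For 7 of the 10 members the shNC and shELOVL5 libraries did not overlap, a share near the 60.1% of all genes tested. Non-overlap by itself therefore did not set the members apart. In bulk RNA, a change in every cell and a change in the share of cells that express a gene cannot be told apart.

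Cell cycle genes of the list went in no common direction. CDKN1A (ENSG00000124762, chromosome 6, 36676460 to 36687339) encodes p21, an inhibitor of cyclin-dependent kinases. It was the lowest member, at 6.58, 3.98, 6.17 and 5.86 CPM, from 112, 64, 108 and 97 counts. Both shELOVL5 libraries lay between the shNC libraries. The log2 fold change was 0.19 with a 95% interval of -0.45 to 0.82 (adjusted p = 0.717), and the shNC replicates differed more (SD 1.84 CPM) than the shELOVL5 replicates (SD 0.219 CPM). It was 0.59 without shNC replicate 1 and -0.14 without shNC replicate 2, and neither passed (adjusted p = 0.275 and 0.823).

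BTG2 (ENSG00000159388, chromosome 1, 203305491 to 203309602), an antiproliferative gene whose product recruits the CCR4-NOT deadenylase, stood at 11.9, 16.7, 12.7 and 13.4 CPM. The shELOVL5 values again lay inside the shNC range. Its log2 fold change was -0.13 (95% interval -0.57 to 0.30, adjusted p = 0.694), with -0.36 without shNC replicate 1 and 0.12 without shNC replicate 2. ZMAT3 (ENSG00000172667, chromosome 3, 179017223 to 179072279), which encodes a zinc finger RNA-binding protein that regulates splicing and mRNA stability, was the only member that fell. It stood at 86.7 and 88.8 CPM in shNC and 68.0 and 64.9 CPM in shELOVL5. Both shELOVL5 values were lower than both shNC values (log2 fold change -0.40, SE 0.0686, adjusted p = 0.00231), and it passed with any 1 library left out.

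The feedback genes both rose, by unequal amounts. MDM2 (ENSG00000135679, chromosome 12, 68808176 to 68850686), the ubiquitin ligase gene of the p53 loop, had the most counts of the list, at 184, 172, 201 and 205 CPM. Both shELOVL5 libraries were above both shNC libraries, with a small difference (log2 fold change 0.19, SE 0.0507, adjusted p = 0.0238). That call did not hold with all 4 libraries and no low-count filter (edgeR, adjusted p = 0.0843), or in a test against a 1.2-fold change (glmTreat). Nor did it hold without shNC replicate 2 (log2 fold change 0.13) or without shELOVL5 replicate 1 (0.2) or 2 (0.17). An antisense gene, ENSG00000257181, shares 785 exonic bases with MDM2, and whether counting used strand was not stated in the labels or notes. It had 215 and 193 counts in shNC and 322 and 123 in shELOVL5, so its groups overlapped.

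TP53INP1 (ENSG00000164938, chromosome 8, 94925972 to 94949411) encodes a stress-induced protein that promotes p53 phosphorylation and autophagy. It stood at 24.4 and 24.8 CPM in shNC and at 33.6 and 37.8 CPM in shELOVL5. The groups did not overlap (log2 fold change 0.54, SE 0.111, adjusted p = 0.00644). Without shELOVL5 replicate 2, the higher library, the log2 fold change was 0.45 and did not pass (adjusted p = 0.0779).

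Both genes of death and survival signalling rose. TNFRSF10B (ENSG00000120889, chromosome 8, 23020133 to 23069179) encodes the death receptor DR5, which binds the ligand TRAIL. The shNC libraries held 70.3 and 68.5 CPM and the shELOVL5 libraries 103 and 94.7 CPM. Both shELOVL5 libraries were higher (log2 fold change 0.51, SE 0.0692, adjusted p = 0.000561). RHOBTB2, on the opposite strand, shares 67 exonic bases with it.

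PHLDA3 (ENSG00000174307, chromosome 1, 201464383 to 201469237) encodes a pleckstrin homology domain protein that competes with AKT for membrane lipids. It stood at 40.4 and 39.3 CPM in shNC and 60.5 and 56.7 CPM in shELOVL5. The groups did not overlap (log2 fold change 0.56, SE 0.0875, adjusted p = 0.00133). TNFRSF10B and PHLDA3 passed with any 1 library left out. They were also the 2 members that passed a test against a 1.2-fold change (glmTreat), which 6.01% of all genes passed.

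**Figure D2:**
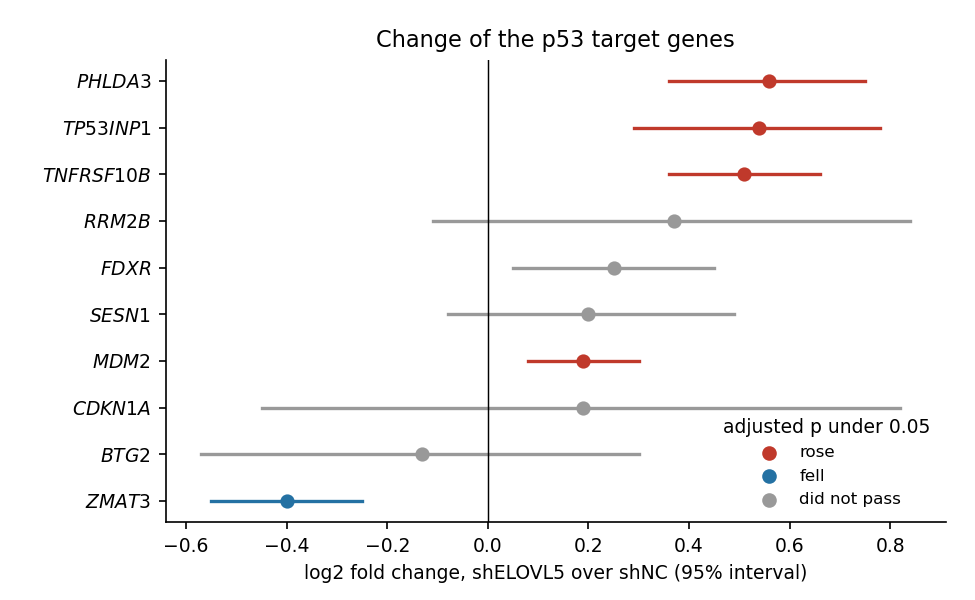
Log2 fold change of each p53 target (points) with its 95% interval (lines), shELOVL5 over shNC, from the edgeR fit; red rose, blue fell and grey did not pass an adjusted p of 0.05. The intervals of CDKN1A, BTG2, SESN1 and RRM2B span 0, and that of FDXR, 0.05 to 0.45, is not adjusted for the number of genes.

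None of the 3 metabolic and nucleotide supply genes passed by edgeR, DESeq2 or limma-voom with all libraries and no block, and 1, FDXR, was under 0.05 by edgeR before adjustment. SESN1 (ENSG00000080546, chromosome 6, 108986437 to 109094819), a sestrin gene whose product restrains mTORC1, was at 30.8, 24.9, 30.5 and 33.6 CPM. The groups overlapped (log2 fold change 0.20, 95% interval -0.08 to 0.49, adjusted p = 0.308). RRM2B (ENSG00000048392, chromosome 8, 102204502 to 102239118) encodes the p53-inducible small subunit of ribonucleotide reductase, which supplies deoxynucleotides outside S phase. It stood at 65.0 and 45.2 CPM in shNC and 72.9 and 69.3 CPM in shELOVL5.

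The result for RRM2B rested on the shNC library it was set against. With all libraries the log2 fold change was 0.37 (95% interval -0.11 to 0.84, adjusted p = 0.254). Without shNC replicate 1 it was 0.65, and without shNC replicate 2 it was 0.12. Each of these fits holds 1 shNC library, so it cannot measure the spread of shNC. With the replicate number as a block the log2 fold change was 0.38 and passed narrowly (adjusted p = 0.0491).

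FDXR (ENSG00000161513, chromosome 17, 74862497 to 74873031), the gene of ferredoxin reductase, which passes electrons to mitochondrial ferredoxins, was at 43.0 and 43.9 CPM in shNC and 49.3 and 53.8 CPM in shELOVL5. The libraries did not overlap, but the gene did not pass (log2 fold change 0.25, SE 0.0902, adjusted p = 0.0812). Of the 3 members with a consensus match in a promoter window, MDM2 passed and FDXR and SESN1 did not, with log2 fold changes of 0.19, 0.25 and 0.20.

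Levels of different members were compared per kilobase of exon sequence (CPM divided by the union of GENCODE 29 exons), a scale that understates genes with long rarely used exons. In shNC, TNFRSF10B at 13.3 to 13.6 and MDM2 at 12.9 to 13.9 CPM per kilobase were highest and did not differ beyond their spread. PHLDA3 (12.5 to 12.9) and FDXR (12 to 12.2) followed. RRM2B (8.15 to 11.7) and ZMAT3 (8.99 to 9.20) overlapped each other. SESN1 (4.86 to 6.01), BTG2 (4.33 to 6.05) and TP53INP1 (4.30 to 4.36 CPM per kilobase) formed a lower set in which neighbours overlapped, and CDKN1A was lowest at 1.31 to 2.16. In shELOVL5, PHLDA3 at 18.1 to 19.3 CPM per kilobase stood beside TNFRSF10B at 18.4 to 19.9, both above MDM2 at 15.1 to 15.5, and CDKN1A remained lowest at 1.92 to 2.02. The summed level of the 10 members was 563 and 528 CPM in shNC and 637 and 635 CPM in shELOVL5.

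TP63, a p53 homologue, and CDKN2A, whose ARF product inhibits MDM2, had 0 counts in each library, where up to 3 counts, or 0.171 to 0.187 CPM, could go unseen. TP73, the other homologue, had 15 and 15 counts in shNC against 21 and 32 in shELOVL5 (log2 fold change 0.78, adjusted p = 0.332). MDM4, the partner of MDM2 in p53 control, had a log2 fold change of -0.01 (adjusted p = 0.979).

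Of 24 genes of the p53 family, its regulators and cofactors, 22 were tested, 1 rose and 5 fell, with a median log2 fold change of -0.013. The share called, 27.3%, was near the 27.4% of genes at 5 CPM or more. The checkpoint kinase genes CHEK1 and CHEK2, whose products phosphorylate p53 after DNA damage, fell by 0.86 and 0.52 on the log2 scale (adjusted p = 4.4e-05 and 0.00622). CHEK1 went from 77.1 ± 3.73 to 42.4 ± 0.391 CPM (SD, n = 2). CHEK2 lost its call without shELOVL5 replicate 1 (adjusted p = 0.0535). RPL5, a ribosomal protein gene whose product can bind MDM2, fell by 0.45 and PRMT5, an arginine methyltransferase gene, by 0.41 on the log2 scale. The 1 gene that rose was USP7, which encodes a deubiquitinase of MDM2 and p53 (log2 fold change 0.17, adjusted p = 0.0136, and 0.141 without shELOVL5 replicate 2). USP7 was named after its values were seen.

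Further p53 targets did not share a direction. Of 50 listed, 49 matched an identifier and 41 were tested: 4 rose, 8 fell and 29 did not pass, with a median log2 fold change of 0.033. With 29.3% called against 20.4% of all genes, the share was near that of genes at 5 CPM or more (27.4%). In each fit without 1 library fewer further targets rose, as was so over all genes tested. GDF15, SPATA18 and CMBL, named after their values were seen, had 0 counts in each library.

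In the cell cycle and DNA repair group, 4 of 14 tested genes fell by edgeR, and none rose by edgeR, DESeq2 or limma-voom. The share called was 28.6%. Of all genes at 5 CPM or more, 27.4% passed, 12.2% as higher and 15.2% as lower. PCNA, the replication clamp gene, fell by 0.46, CCNG2 by 0.58, CCNG1, a cyclin G gene, by 0.35 and the phosphatase gene PPM1D by 0.30 on the log2 scale. CCNG1 went from 92.5 ± 0.294 to 72.5 ± 1.36 CPM (SD, n = 2). PPM1D did not pass when any 1 library was left out (adjusted p = 0.0737 to 0.21). At an unadjusted p under 0.05, 2 genes of this group were higher by edgeR, POLH and RPS27L, named after their values were seen.

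In the death and survival group, 3 of 13 tested genes rose and 1 fell. The share called was 30.8%, against 20.4% of all genes tested and 27.4% of those at 5 CPM or more. PMAIP1, the gene of the BCL2-family protein NOXA, fell from 59.4 ± 1.2 to 37.7 ± 1.29 CPM (log2 fold change -0.66, adjusted p = 0.000477). AEN, a nuclease gene, rose by 0.25, FAS, a death receptor gene, by 0.33 and TNFRSF10A, which encodes the TRAIL receptor DR4, by 0.96 on the log2 scale. TNFRSF10A went from 2.92 ± 0.695 to 5.69 ± 0.107 CPM (SD, n = 2). The fall of PMAIP1 passed with any 1 library left out. FAS passed in none of the 4 leave-one-out fits (adjusted p = 0.0668 to 0.196), and AEN and TNFRSF10A did not pass without shNC replicate 2 (0.0833 and 0.188), shELOVL5 replicate 1 (0.0824 and 0.173) or shELOVL5 replicate 2 (0.0995 and 0.144).

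In the metabolism and stress group, 1 of 14 tested genes rose and 3 fell. The share called was 28.6%, against 20.4% of all genes tested and 27.4% of those at 5 CPM or more. SESN2, a sestrin gene like SESN1, fell from 63.7 ± 4.40 to 38.7 ± 1.58 CPM (log2 fold change -0.72, adjusted p = 0.000356). RAP2B, a small GTPase gene, fell by 0.69 and PRKAB1, which encodes a subunit of AMP-activated kinase, by 0.23 on the log2 scale, while SUSD6 rose by 0.43. SUSD6 did not pass without shELOVL5 replicate 1 (adjusted p = 0.0625), nor PRKAB1 without shNC replicate 1 (0.15) or shELOVL5 replicate 1 (0.213).

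**Figure D3:**
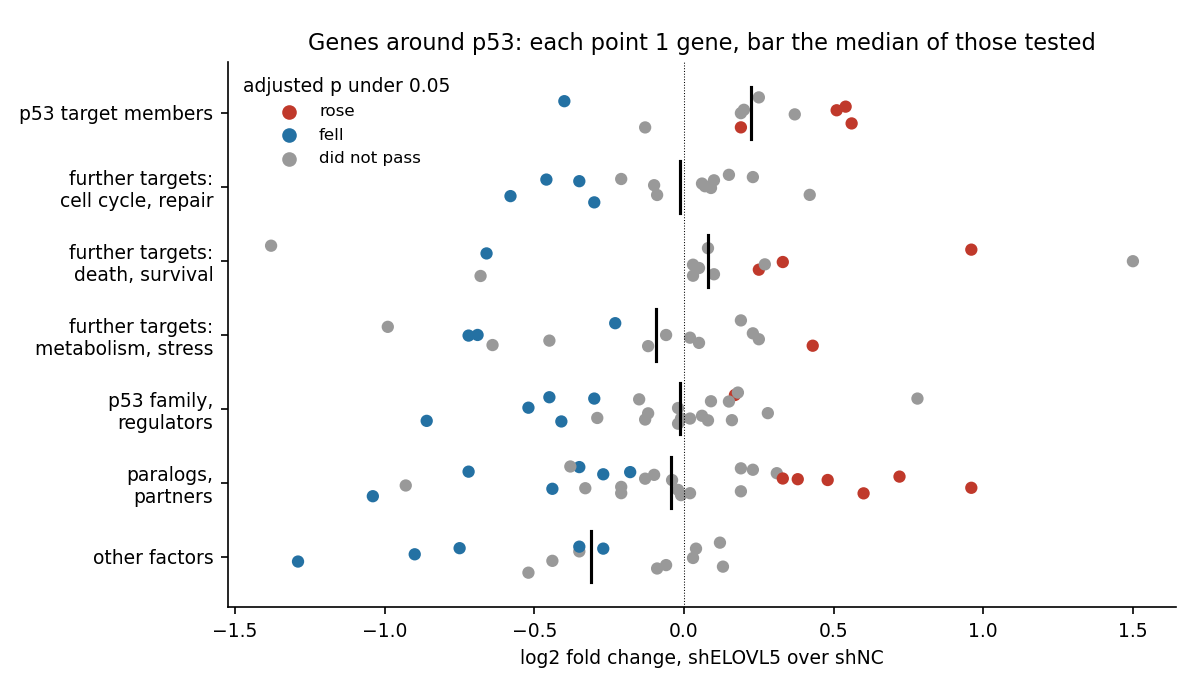
Log2 fold change, shELOVL5 over shNC, of each tested gene on the lists around p53 (points; height within a list is arbitrary) and the median of each list (bars); red rose, blue fell and grey did not pass an adjusted p of 0.05. The members have a median of 0.225, and the further targets, regulators and partners have medians of -0.094 to 0.080. The other transcription factors have a median of -0.31.

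Of 28 paralogs and partners of the members, 27 were tested, 6 rose and 6 fell, with a median log2 fold change of -0.043. The share called was 44.4%, against 20.4% of all genes tested and 27.4% of those at 5 CPM or more. This list too was chosen with earlier results of these data known, so the share is a description only. RRM1, the large subunit gene of ribonucleotide reductase, fell by 0.44, SESN2 by 0.72 and the kinase gene CDK2, a target of p21, by 0.35 on the log2 scale. TP53INP2, the paralog of TP53INP1, rose by 0.72. RRM2, the S-phase small subunit gene, fell by 0.18 (not without shELOVL5 replicate 2, adjusted p = 0.104), and SESN3 rose by 0.33 (not without shELOVL5 replicate 2, adjusted p = 0.129). FDX1, the ferredoxin gene served by FDXR, rose by 0.38, and FADD, the adaptor gene of death receptors, fell by 0.27. FDX1 lost its call without shELOVL5 replicate 2 (adjusted p = 0.0619), and FADD without shNC replicate 1 (0.0636) or shELOVL5 replicate 1 (0.113) or 2 (0.0912). RRM2, SESN3, FDX1 and FADD were named after their values were seen.

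Ratios of counts within a library, which do not depend on scaling between libraries, set members against such partners. ZMAT3 was instead set against CCNG1, which is on the list of further p53 targets. Of 12 pairs in all, 7 did not overlap between groups, 5 of them higher and 2 lower in shELOVL5. That share was near the 60.1% of single genes tested. An exact two-sided permutation test of 2 against 2 libraries cannot go below p = 0.333. The RRM2B to RRM2 ratio was 0.154 and 0.108 in shNC and 0.192 and 0.190 in shELOVL5. The ratio of SESN1 to SESN2 was 0.508 and 0.372 in shNC and 0.766 and 0.895 in shELOVL5. Both ratios were higher in shELOVL5 without overlap, as were RRM2B to RRM1, TNFRSF10B to FADD and PHLDA3 to PHLDA1. In the edgeR fit SESN1 and RRM2B did not pass, while SESN2, RRM1 and RRM2 fell (log2 fold change -0.72, -0.44 and -0.18). Those 3 ratios therefore do not by themselves show a rise of the member. TNFRSF10B and PHLDA3 rose in that fit. The ratio of FDXR to FDX1 was lower, at 0.869 and 0.912 in shNC and 0.788 and 0.837 in shELOVL5, and so was that of ZMAT3 to CCNG1, at 0.935 and 0.962 against 0.926 and 0.908. By contrast, the MDM2 to MDM4 ratio (2.62 and 2.08 against 2.53 and 2.82) and that of TP53INP1 to TP53INP2 (0.685 and 0.773 against 0.593 and 0.696) overlapped between groups. The ratio of SESN1 to its other paralog, SESN3, overlapped too (0.568 and 0.466 against 0.469 and 0.476). CDKN1A had 0.0576 and 0.0347 counts for each count of CDKN1B, which encodes the related inhibitor p27, in shNC, and 0.0570 and 0.0514 in shELOVL5.

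Of 14 other transcription factors known to act on members, all tested, 5 fell and none rose by edgeR, DESeq2 or limma-voom, with a median log2 fold change of -0.310. The share called was 35.7%, all lower by edgeR, against 11.2% of all genes tested as lower and 15.2% of those at 5 CPM or more. The list was chosen with earlier results of these data known, so its share is a description and no excess can be read from it. ATF4 and DDIT3, stress factors that can raise TNFRSF10B and SESN2, fell by 1.29 and 0.90 on the log2 scale. MYC, which can repress CDKN1A, fell by 0.75 and E2F1, a G1/S factor, by 0.35. These 4 passed with any 1 library left out, and the fifth, BRCA1, named after its values were seen, fell by 0.27 and lost its call without shELOVL5 replicate 1 or 2 (adjusted p = 0.0821 and 0.0865) or shNC replicate 1 (0.0808). At an unadjusted p under 0.05, no gene of this list was higher by edgeR. TNFRSF10B rose and SESN2 fell beside the same lower ATF4 and DDIT3, and the part of these factors in the members' values was not tested.

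**Figure D4:**
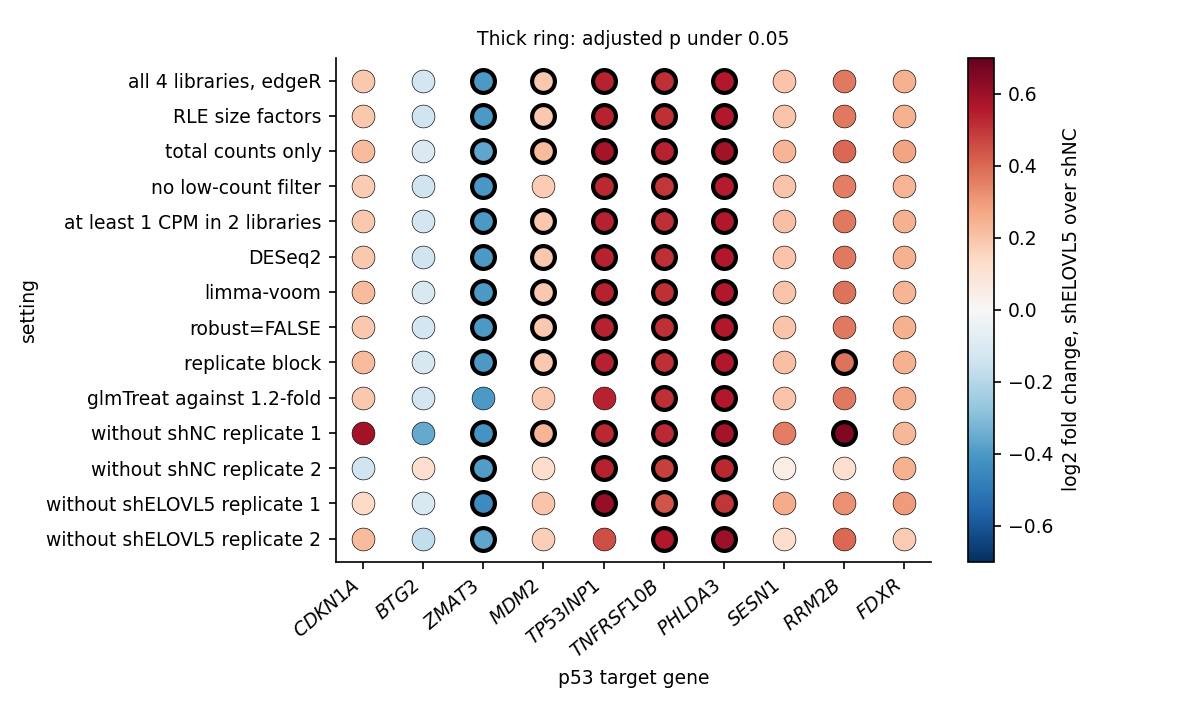
Log2 fold change of each p53 target (columns; colour, shELOVL5 over shNC) in the fit of all 4 libraries and in each alternative (rows), with a thick ring where the adjusted p was under 0.05. TNFRSF10B and PHLDA3 carry the ring in every row, ZMAT3 in every row but the test against a 1.2-fold change, and RRM2B only with the replicate block and without shNC replicate 1.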

How the data were processed

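The authors deposited whole-number read counts per Ensembl gene, not normalized, for 4 libraries. Per the submitters' processing notes, HISAT2 2.2.0, StringTie and hg38 were used. Neither the annotation release nor any use of strand in counting is named there. Groups and replicate numbers came from the titles. Symbols came from a name table that matched 56105 identifiers, and positions and exon lengths from GENCODE 29 (GRCh38).

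Genes were kept by filterByExpr (minimum count 10), scaled by TMM and tested with edgeR 4.0.16 in R 4.3.3 (glmQLFit with robust=TRUE, glmQLFTest, two-sided, with no term but group). P-values were adjusted by Benjamini-Hochberg over the 17461 genes tested, and 0.05 was the threshold. SE and 95% intervals came from the same fit. Simulated counts were used to test the shELOVL5 against shNC fit (17046 genes tested), which recovered 22% of genes changed 1.25-fold and 52% of those changed 1.5-fold.

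Alternatives were RLE factors, total counts, other low-count filters, DESeq2 1.42.0, limma-voom (limma 3.58.1), robust=FALSE, a replicate block, glmTreat and leaving out each library. The members and lists were chosen with earlier results of these data known. Besides the members, the rule named ELOVL5, TP63, TP73, MDM4, 1 gene not reported here, and up to 4 genes per list with the smallest p. Where a library had 0 counts, up to 3 could go unseen, for counting error only.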

Additional observations from a re-analysis of the deposited data

How the results depend on the processing

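Over all genes, 1609 rose and 1953 fell with the settings used, 899 rose with no low-count filter, and 408 rose and 641 fell against a 1.2-fold change (glmTreat). With 1 library left out, 696 to 1347 rose and 1176 to 1616 fell. Of the p53 targets, 2 rose and 0 fell by glmTreat, and 2 to 5 rose and 1 fell with 1 library left out. No p53 target that passed changed its direction in any of the 13 alternatives, while CDKN1A and BTG2, which did not pass, changed sign without shNC replicate 2. Of the further targets, 2 rose with no low-count filter, by DESeq2, by limma-voom and with robust=FALSE, 0 rose and 5 fell by glmTreat, and 0 to 3 rose and 6 to 7 fell with 1 library left out.

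The labels do not say what a shared replicate number marks, and deviations of same-numbered libraries from their group means did not correlate (r = -0.001 over 12244 genes). With a replicate block 1544 genes rose and 1896 fell, and 5 p53 targets rose and 1 fell. CDKN1A had the fewest counts of the p53 targets, 64 to 112 per library. Total-count scaling moved the median of all genes by 0.035 on the log2 scale and turned the balance of calls, to 1927 higher and 1677 lower (53.5% higher, against 45.2%), while 4 p53 targets rose and 1 fell.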
